A study of Mus musculus with 4 samples.

Results

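Type I interferon-stimulated genes were followed across the immune cells of the mouse lung, in animals with and without Lmna in their blood cells. The set was a list of 32 gene symbols. Of these, 31 had a row among the 31053 genes of the count matrices, and Mx2 was not analysed here. The data were 4 single-cell libraries of live CD45.2+ cells sorted from the lungs of C57BL/6J mice at 10 weeks of age. The 2 WT libraries came from mice of genotype Lmna-flox/flox Vav1-cre-/-, and the 2 Lmna_KO libraries (knockout below) from mice of genotype Lmna-flox/flox Vav1-cre+/-. All 4 libraries thus carried the floxed Lmna alleles, and Cre, driven by the blood-cell gene Vav1, was present only in the knockout mice. An effect of Cre itself and the loss of Lmna cannot be told apart in this design. No label says that the cells met a virus or an interferon. The labels name 2 mice of each genotype but do not state which mouse gave which library, so p-values measure the spread between these libraries.

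Type I interferons are secreted proteins that bind the receptor pair Ifnar1 and Ifnar2. The receptor signals through Jak1 and Tyk2 to a complex that holds Stat2 and Irf9, which enters the nucleus and binds a DNA element called the interferon-stimulated response element (ISRE). The genes it turns on block viral entry, degrade or trap viral RNA, tag proteins with Isg15, or, like Irf7 and Usp18, amplify or dampen the response itself. Immune cells keep a low output of these genes without infection. Lmna encodes lamins A and C of the nuclear lamina, the protein mesh under the nuclear envelope.

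The promoters of several members hold the ISRE letters near the start of transcription. Reference promoter windows, from RefSeq on GRCm38.p6, spanned 250 bases before to 50 after each gene's start. They were matched by symbol for 26 of the 31 members. The ISRE letters searched were GAAA, any pair of bases, then GAAA, or their complement (TTTC, any pair, then TTTC) on the other strand. They were found in 13 of the 26, against 1079 of 27025 symbols in the whole table (3.99%). The stretches below are from 5 members that were high in monocytes or neutrophils. Each has 1 match in capitals, while the windows of Isg15, Ifit1 and Ifit3 hold more than 1, and is written 5′ to 3′ on the strand of its gene.
Isg15: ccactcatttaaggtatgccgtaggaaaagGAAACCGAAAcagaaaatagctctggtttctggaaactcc
Ifit1: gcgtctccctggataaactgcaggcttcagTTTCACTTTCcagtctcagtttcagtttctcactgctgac
Ifit3: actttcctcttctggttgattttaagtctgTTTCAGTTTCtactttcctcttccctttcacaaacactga
Rsad2: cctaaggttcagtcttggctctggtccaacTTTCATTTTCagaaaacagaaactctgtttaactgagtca
Slfn5: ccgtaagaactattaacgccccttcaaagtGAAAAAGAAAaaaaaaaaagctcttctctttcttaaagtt

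These stretches lie at chr4:156200851-156200920 on the minus strand (Isg15), chr19:34640755-34640824 on the plus strand (Ifit1), chr19:34583377-34583446 on the plus strand (Ifit3), chr12:26456533-26456602 on the minus strand (Rsad2) and chr11:82951917-82951986 on the plus strand (Slfn5). The capitals begin between 155 and 72 bases upstream of the RefSeq start of the window. The GENCODE position of Slfn5 begins at chr11:82951349 on the plus strand, so by that annotation its stretch lies inside the gene. Of the 31 windows of the members, 27 had bases after the start that matched a transcript of the gene. The windows of Irf7, Oasl2 and Slfn4, all of which passed the test in a knockout comparison below, held no ISRE letters. A match is a description of the letters and not a measured binding site.

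The 4 matrices held 16528 barcodes and between 21780914 and 27045250 UMIs (unique molecular identifiers, each standing for 1 captured RNA molecule) per library. The filters on genes and mitochondrial UMIs kept 15181 cells, with median UMIs per cell of 4912 and 4705.5 in the WT and 4112 and 4548 in the knockout libraries. Pairs of libraries shared 2 to 5 cell barcodes. Cells were assigned to immune classes by marker genes that are not members, and 8 classes had enough cells in every library for a test. WT 2 stood apart in holding 458 cells with markers of T-cell precursors, against 19 to 40 in the other libraries, and these cells entered no class that was tested. The alveolar macrophage class was small in the knockout, with 53 and 33 cells against 212 and 228 in WT. Lmna itself was lower in the knockout in alveolar macrophages, at 75.2 and 76.0 against 370 and 329 CPM (counts scaled to a common library total) in WT (log2 fold change -2.21, adjusted p = 1.52e-07, edgeR). It was also lower in NK cells (-1.91, adjusted p = 0.00595) and B cells (-1.28, adjusted p = 0.0237). In neutrophils Lmna gave 17 and 15 UMIs in WT and 12 and 30 in the knockout, and in nonclassical monocytes 5 and 18 against 11 and 15. In classical monocytes Lmna gave 39 and 37 UMIs in WT and 34 and 48 in the knockout (-0.18, adjusted p = 0.922), and in CD4 T cells 17 and 6 against 11 and 12 (-0.24, adjusted p = 0.930). In CD8 T cells it gave 14 and 12 against 11 and 5 (-0.64, adjusted p = 0.825). A lower Lmna level was thus not seen past the threshold in 5 of the 8 classes, among them neutrophils and nonclassical monocytes. Whether the 3′ tags lie outside the deleted part of the gene was not tested.

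The first comparison asked which immune classes carry the member transcripts. Levels here are CPM scaled together over all classes by TMM (trimmed mean of M values). Each 3′ UMI marks a molecule and is not divided by gene length, so levels are compared between classes and not between genes. Myeloid cells held most of the signal. All 31 members were higher in classical monocytes than in the mean of the other 7 classes, 23 were higher in neutrophils, and 21 in nonclassical monocytes (edgeR, adjusted p under 0.05). Of all 11605 genes tested, the same rule called 35.3% higher in classical monocytes, 35.4% in neutrophils and 29.5% in nonclassical monocytes. Lymphocytes and alveolar macrophages stood at the other end. Members were lower than in the other classes for 18 genes in B cells (background 27.3%), 12 in CD4 T cells (26.6%), 12 in CD8 T cells (27.7%), 15 in NK cells (22.9%) and 26 in alveolar macrophages (30.4%). By mean level, 19 members were highest in classical monocytes, 11 in neutrophils and 1, Ifi47, in CD8 T cells, while 22 were lowest in alveolar macrophages.

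**Figure D1:**
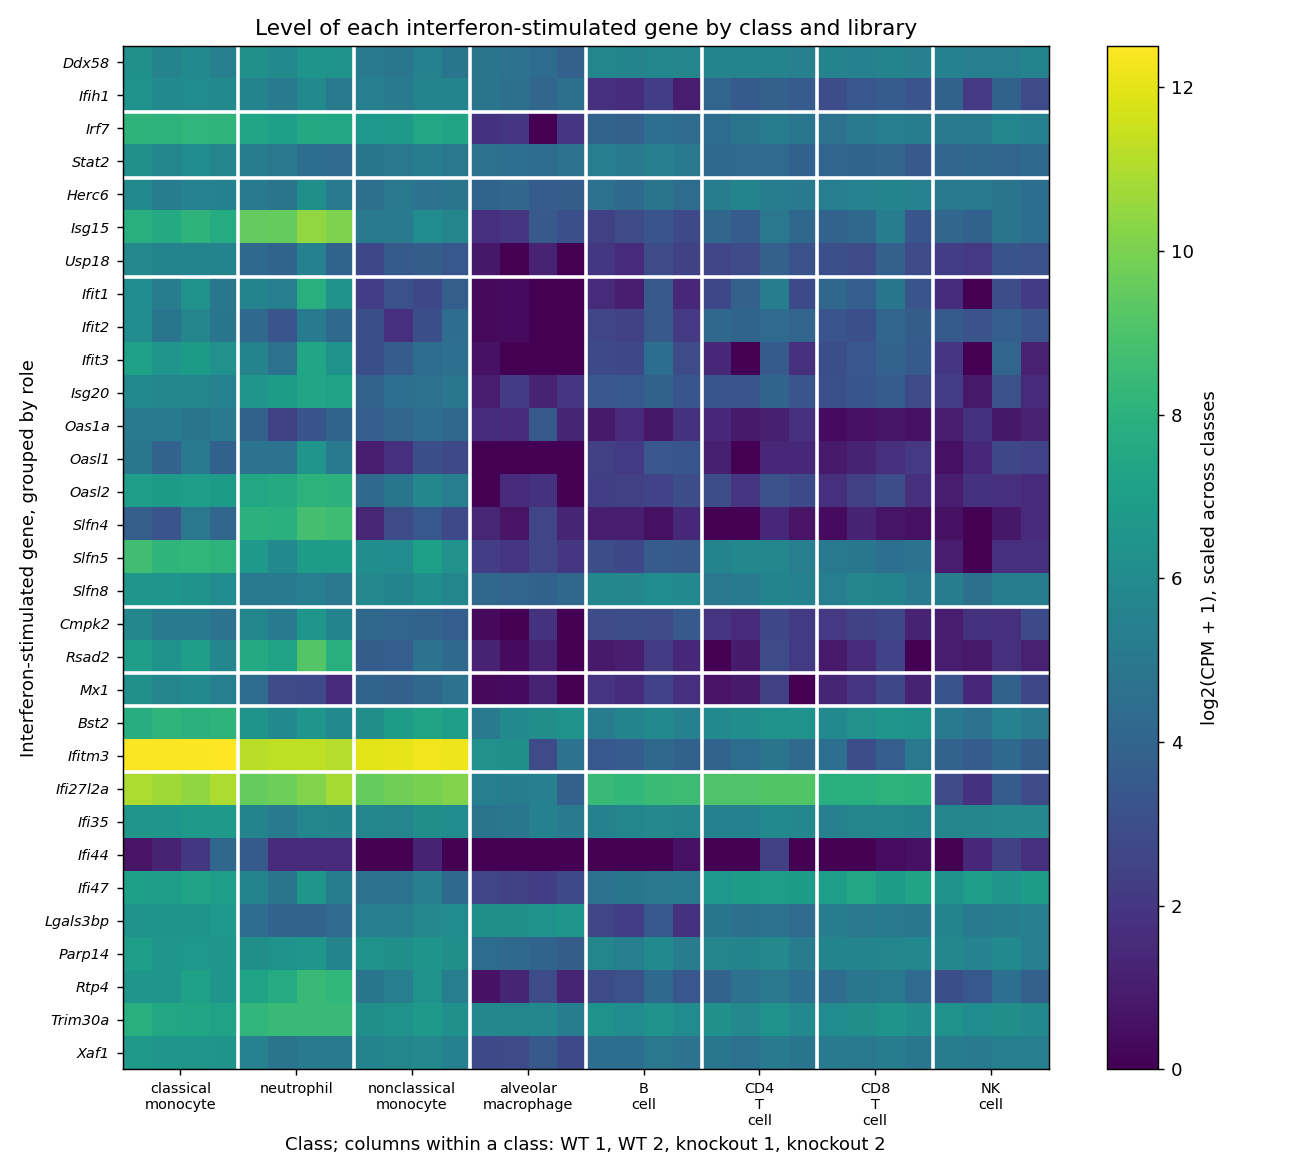
Heat map of log2(CPM + 1) for the 31 members (rows) in 8 immune classes of the 4 libraries (columns). The columns of classical monocytes and neutrophils are the brightest (highest) for most genes, and Ifitm3 and Ifi27l2a, which hold 44.2% and 18.5% of all member UMIs, stand out among the rows.

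Among the membrane factors, Ifitm3 marked monocytes and neutrophils. Ifitm3 is a membrane protein that hinders fusion of enveloped viruses with the cell. Its level was 5545 and 5599 CPM in WT and 5608 and 5823 CPM in knockout classical monocytes. Nonclassical monocytes followed with 4021, 4233, 4801 and 4628 CPM, in the order WT 1, WT 2, knockout 1, knockout 2 that is used from here on. Neutrophils had 2311, 2556, 2550 and 2208 CPM, and B cells 9.9, 11.5, 17.8 and 13.6 CPM. The libraries of these 4 classes did not overlap. Against the mean of the other classes Ifitm3 was 6.01 log2 units higher in classical monocytes (SE 0.17, adjusted p = 1.35e-18, edgeR) and 5.60 higher in nonclassical monocytes (SE 0.18, adjusted p = 4.94e-18). Bst2, or tetherin, which holds budding virions at the cell surface, was highest in classical monocytes, at 222.4, 292.4, 260.2 and 283.2 CPM.

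The effectors that act on viral RNA or protein synthesis split between classical monocytes and neutrophils. Slfn4, a Schlafen family gene of myeloid cells, was the most uneven of all members. It stood at 259, 241, 453 and 398 CPM in neutrophils and at 12.9, 8.9, 29.6 and 16.4 CPM in classical monocytes. No lymphocyte class reached 2 CPM in any library. Its neutrophil level was 7.49 log2 units above the mean of the other classes (SE 0.12, adjusted p = 2.63e-38, edgeR). Slfn5 was instead highest in classical monocytes, at 407.1, 287.6, 311.9 and 268.4 CPM (4.18 log2 units above the other classes, SE 0.13, adjusted p = 1.00e-19). The oligoadenylate synthetase Oas1a, which makes the second messenger that switches on RNase L, was 2.54 higher in nonclassical monocytes (SE 0.23, adjusted p = 2.90e-12). Even so, its level was higher in classical monocytes, at 33.1, 33.7, 27.0 and 36.3 CPM, than in nonclassical monocytes, at 12.2, 16.7, 21.1 and 17.5 CPM. Oasl1, a relative that restrains Irf7 translation, led among the 5 members that were higher in B cells (1.16, SE 0.32, adjusted p = 0.00194). The same rule called 36.3% of all genes higher in B cells. Oasl1 was further above the other classes in neutrophils (4.23, SE 0.27) and in classical monocytes (3.19, SE 0.27). Oasl1 gave no UMI in the alveolar macrophages of any library.

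Isg15 and viperin were highest in neutrophils, while the other genes of the ISG15 pathway, Usp18 and Herc6, were not. Isg15, the ubiquitin-like protein that is conjugated to other proteins during the response, had 733, 743, 1443 and 1071 CPM in neutrophils. Classical monocytes had 232, 199, 276 and 208 CPM and nonclassical monocytes 35.6, 35.8, 63.7 and 50.3 CPM of Isg15. The 3 classes did not overlap in any library, and the neutrophil level was 5.51 log2 units above the mean of the other classes (SE 0.08, adjusted p = 7.63e-31, edgeR). Usp18, the protease that removes Isg15 and dampens receptor signalling, was highest in classical monocytes, at 57.8, 47.9, 49.6 and 47.2 CPM. Rsad2, or viperin, an enzyme that makes a chain-terminating nucleotide, was 6.04 higher in neutrophils (SE 0.20, adjusted p = 7.50e-19) and 4.34 higher in classical monocytes (SE 0.22, adjusted p = 1.87e-14). Its neutrophil level varied between libraries, at 200, 149, 569 and 227 CPM.

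Only Ifi47 had its highest mean level outside classical monocytes and neutrophils, while some other members were also raised in further classes. Ifi47, an immunity-related GTPase, was higher in CD8 T cells (1.67, SE 0.14, adjusted p = 1.41e-10, edgeR), at 123.1, 172.1, 114.6 and 159.3 CPM. Classical monocytes had 137.0, 129.8, 153.5 and 126.8 CPM of Ifi47, and the 2 ranges overlapped. Lgals3bp, a secreted glycoprotein, was higher in alveolar macrophages (1.51, SE 0.12, adjusted p = 2.97e-14). Only Ifih1, a sensor of long double-stranded RNA, was also higher there (0.55, SE 0.16, adjusted p = 0.00328), against 35.5% of all genes. In classical monocytes the values were larger, at 1.70 for Lgals3bp (SE 0.10) and 2.25 for Ifih1 (SE 0.12). Ifi27l2a, a small hydrophobic protein, was at 538, 539, 544 and 556 CPM in CD4 T cells and at 6.5, 2.5, 11.5 and 6.5 CPM in NK cells. It was 1.21 above the other classes in CD4 T cells (SE 0.15) and 3.15 above them in classical monocytes (SE 0.13). Mx1, a dynamin-like GTPase that traps viral nucleocapsids, was highest in classical monocytes, at 75.8, 50.1, 62.8 and 41.7 CPM, and at most 26.5 CPM in any library of the other classes. Ifi44 passed the low-count filter in no class.

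Over the 32 sums of 8 classes in 4 libraries, the genes whose log2 CPM was most like the mean log2 CPM of the members were Tmpo (Pearson r 0.948), Oas3 (0.946), Oas2 (0.917), Ifit3b (0.910) and Rbfa (0.908) out of 8057 genes compared. These points share libraries, so the values are a description. Oas2, Oas3 and Ifit3b are relatives of members. Ifit3 and Ifit3b are near-identical copies, and how their shared reads were counted is not given in the sources used here. Within the set, Lgals3bp (0.0909) and Ifi47 (0.380) were least like the mean of the other members and Oasl2 (0.956) most like it.

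The second comparison set the knockout against WT within each class. CPM here are scaled by TMM within the class, so they differ from the levels above. Few single members passed the test, and most members of neutrophils, nonclassical monocytes and B cells lay slightly above 0 in log2 fold change. Their medians were 0.57 over 29 members tested in neutrophils, 0.48 over 30 in nonclassical monocytes and 0.39 over 25 in B cells, beside medians near 0 over all genes tested. Above 0 were 25 of 29 members in neutrophils (49.7% of all genes), 28 of 30 in nonclassical monocytes (49.7%) and 24 of 25 in B cells (50.7%). Without knockout 1 these counts were 21 of 31, 22 of 30 and 16 of 26, with medians of 0.24, 0.32 and 0.20. The neutrophil median was 0.21 without WT 2, the nonclassical median 0.27 without WT 1, and the B-cell median 0.60 without knockout 2. In classical monocytes, the class with the broadest output, the median was -0.13 and 11 of 30 members lay above 0 (50% of all genes). Without WT 1 it was 0.09, with 23 of 31 above 0, so its sign rests on that library. The medians of the other classes were 0.22 in CD4 T cells, 0.16 in CD8 T cells, 0.14 in NK cells and 0.06 in alveolar macrophages.

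**Figure D2:**
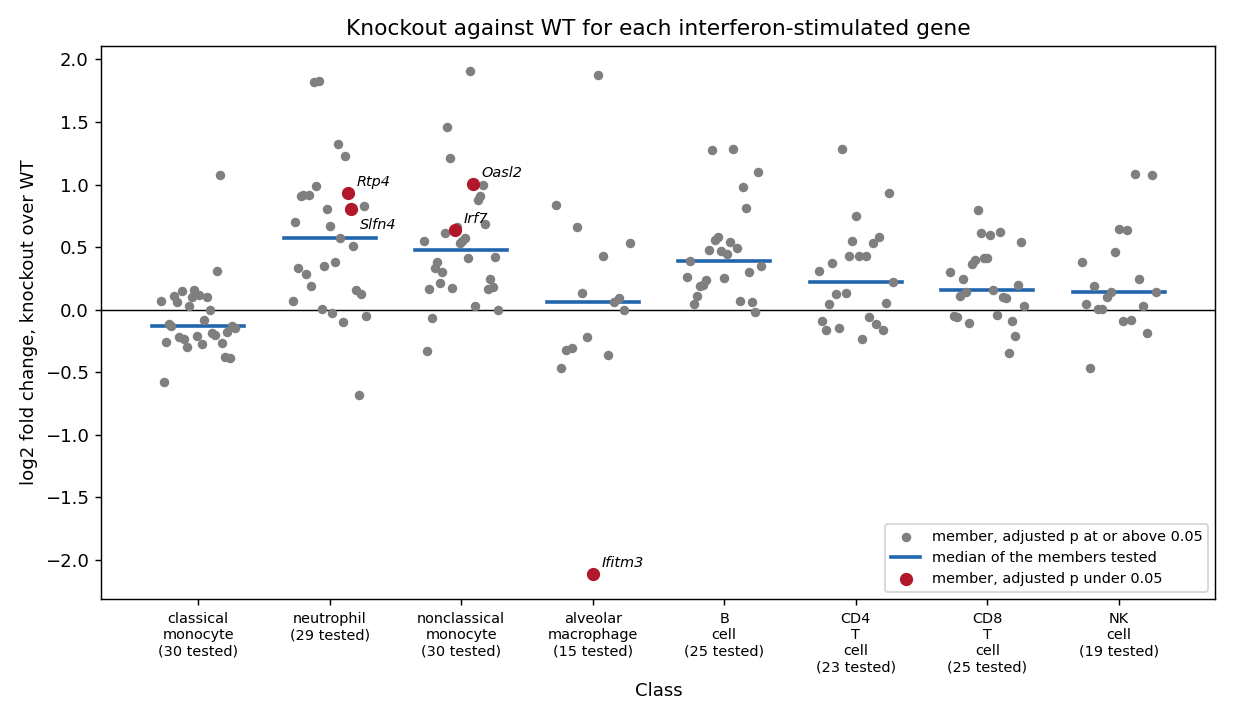
Log2 fold change of knockout over WT for each member tested (points) in the 8 classes, with the class median as a bar and the members past an adjusted p of 0.05 named. The bars of neutrophils, nonclassical monocytes and B cells stand at 0.57, 0.48 and 0.39, and that of classical monocytes at -0.13.

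In neutrophils, 2 of the 29 members tested were higher in the knockout and none was lower (edgeR, adjusted p under 0.05), against a background of 0.382% of genes called higher and 0.314% lower. DESeq2 called 5 members higher, and the share of all genes it called is not given here. At an unadjusted p under 0.05 there were 9 higher members (4.13% of all genes) and 1 lower (4.28%). Slfn4 (chr11:83175186-83190216, mm10) had 187 and 168 CPM in WT and 333 and 287 CPM in the knockout. Both knockout libraries lay above both WT libraries, with means of 310 ± 32.6 and 177 ± 14.0 CPM (SD, n = 2 each). Slfn4 rose by 0.80 log2 units (SE 0.14, adjusted p = 0.0236, edgeR). Rtp4 (chr16:23520291-23614222, mm10), a chaperone of certain receptors that also dampens interferon responses, had 106 and 145 CPM in WT and 257 and 222 CPM in the knockout. The groups again did not overlap, and Rtp4 rose by 0.93 (SE 0.17, adjusted p = 0.0303, edgeR). Isg15 had 530 and 516 CPM in WT and 1061 and 771 CPM in the knockout and missed the threshold (0.81, SE 0.17, adjusted p = 0.0598). The number of members called fell when a WT library was left out and rose when a knockout library was. Such runs leave 1 library in a group. The share of all genes called in them is not given, so these moves are no result about the members.

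By role, the neutrophil values were uneven. Of the 10 effectors against viral RNA or protein synthesis that were tested, 10 lay above 0 and 8 had both knockout libraries above both WT libraries. Among all members 16 of 29 had that order, against 19.9% of all genes. Ifit3, which binds viral RNA together with Ifit1, had 33.7 and 16.7 CPM in WT and 122 and 58.5 CPM in the knockout (1.83, adjusted p = 0.555). Ifit1 had 34.9, 29.1, 168 and 58.5 CPM (1.82, adjusted p = 0.699). Both were highest in knockout 1, and the distance between the knockout libraries was larger than that between the knockout 2 and WT libraries. The 3 genes of the ISG15 pathway lay between 0.81 and 0.91. Stat2, a part of the complex that binds the ISRE, went the other way, at 26.8 and 21.6 CPM in WT and 16.0 and 14.3 CPM in the knockout (-0.68, adjusted p = 0.555). Ifitm3 had similar values in all libraries, at 1671, 1777, 1874 and 1591 CPM (0.01, adjusted p = 0.993).

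Markers of other cells differed between neutrophil libraries along the library numbers rather than the genotypes. Summed marker levels are given as plain CPM, without TMM scaling. Epithelial markers were at 102 and 5404 plain CPM in WT 1 and WT 2 and at 135 and 5135 in knockout 1 and knockout 2. Fibroblast markers were at 256, 1.2, 370 and 13.5 plain CPM, and the classical monocyte list at 2305, 2084, 1726 and 2293. Without cells that carried nonimmune markers, an alternative added after the data were seen, 3 members were called in neutrophils. In that setting Slfn4 was at 0.85 (adjusted p = 0.0179) and Rtp4 at 0.96 (adjusted p = 0.0220, edgeR). That filter kept 491, 563, 520 and 544 of the 492, 563, 523 and 546 neutrophils. It took out so few cells that it cannot address the marker levels above.

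In nonclassical monocytes, 2 of the 30 members tested were higher in the knockout and none was lower (edgeR, background 0.281% higher and 0.644% lower). DESeq2 called 0, and 10 were higher and 0 lower at an unadjusted p under 0.05, against 5.27% and 5.39% of all genes. Irf7 (chr7:141262706-141266481, mm10), the transcription factor that drives later interferon genes, had 104 and 114 CPM in WT and 178 and 159 CPM in the knockout. Its groups did not overlap, and Irf7 rose by 0.64 (SE 0.13, adjusted p = 0.0152, edgeR). Oasl2 (chr5:114896936-114912234, mm10), an oligoadenylate synthetase-like gene, had 19.9 and 29.3 CPM in WT and 55.9 and 41.1 CPM in the knockout. Oasl2 rose by 1.0 (SE 0.22, adjusted p = 0.0335, edgeR), from 38 and 47 UMIs in WT and 116 and 76 in the knockout. DESeq2 gave adjusted p = 0.275 for Irf7 and 0.621 for Oasl2, and without knockout 1 edgeR gave 0.0590 and 0.146. Without WT 1 Oasl2 had 0.131.

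Ifit3 was just outside the threshold in nonclassical monocytes, with 7.33 and 11.9 CPM in WT and 20.7 and 23.2 CPM in the knockout (1.21, SE 0.30, adjusted p = 0.0592, edgeR). In this class 10 of 10 RNA and protein-synthesis effectors lay above 0, and 6 had both knockout libraries above both WT libraries. Over all members that order held for 16 of 30, against 20.4% of all genes. The cytidylate kinase-like gene Cmpk2 was an exception, with 18.3 and 16.8 CPM in WT and 15.4 and 12.4 CPM in the knockout (-0.33, adjusted p = 0.736). The classical monocyte markers in this class summed to 692, 732, 834 and 810 plain CPM. Those of migratory dendritic cells were at 5.3, 4.9, 105.5 and 5.2 plain CPM. The part of either in the result was not tested.

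**Figure D3:**
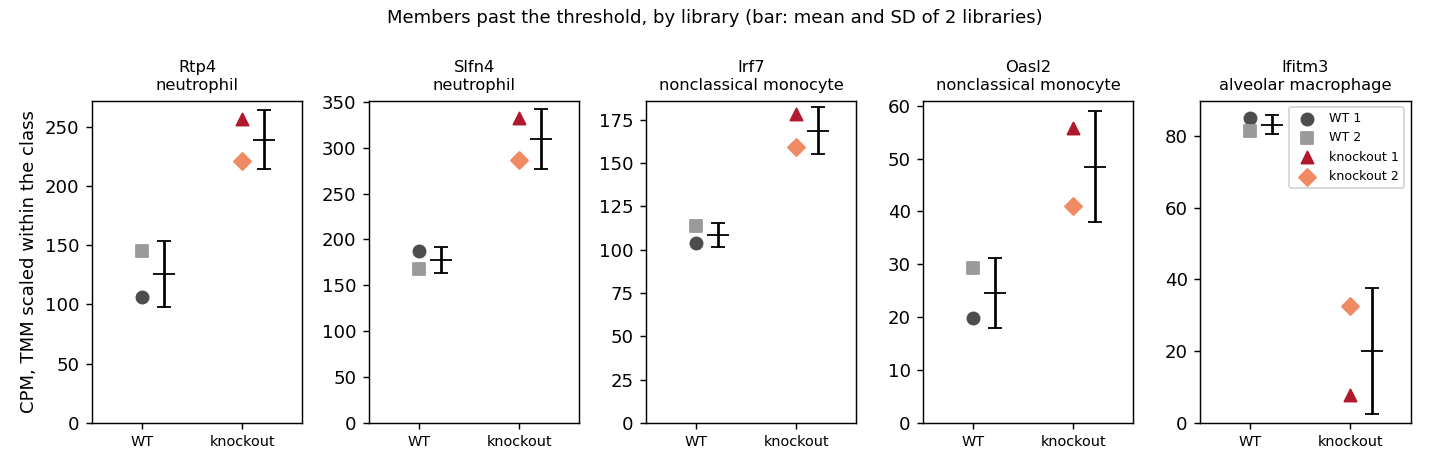
CPM within class, by library, for the 5 pairs of member and class past an adjusted p of 0.05, with WT and knockout libraries as separate points. Slfn4 and Rtp4 in neutrophils and Irf7 and Oasl2 in nonclassical monocytes are higher in both knockout libraries, and Ifitm3 in alveolar macrophages is lower in both.

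B cells had 0 members called by edgeR or by DESeq2, with 7 higher (3.27% of all genes) and 0 lower (5.14%) at an unadjusted p under 0.05. The background of adjusted calls was 0.224% higher and 0.845% lower. Oasl1 came nearest, at 4.26 and 3.45 CPM in WT and 9.60 and 9.41 CPM in the knockout (1.29, SE 0.33, adjusted p = 0.0578, edgeR). Rtp4 (0.98, adjusted p = 0.196) and Irf7 (0.58, adjusted p = 0.270) followed. In 12 of 25 members both knockout libraries lay above both WT libraries, against 19.4% of all genes. The plasma-cell markers in this class were at 3604 and 3409 plain CPM in WT and 1834 and 1972 in the knockout. Epithelial markers were at 94.2 and 122 against 1111 and 1039, with Scgb1a1 the largest part in WT and Sftpc in the knockout. These lists separated the genotypes in the same libraries, and their part in the member values was not tested.

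No member was called in CD4 T cells (background 0.285% higher and 0.499% lower), CD8 T cells (0.12% and 0.317%), NK cells (0.133% and 0.521%) or classical monocytes (0.0644% and 0.0536%), by edgeR or by DESeq2. At an unadjusted p under 0.05, 3 members were higher in CD4 T cells (4.56% of all genes) and 0 lower (4.76%). In CD8 T cells 2 were higher (3.26%) and 0 lower (4.55%), and in NK cells 3 were higher (3.5%) and 0 lower (4.6%). Classical monocytes had 1 higher (3.14%) and 1 lower (4.19%). In CD4 T cells the smallest p-values were those of Slfn8 (0.58, adjusted p = 0.339), Isg15 (0.75, 0.457) and Irf7 (0.55, 0.491). In CD8 T cells Ifit2 (0.80, 0.460), Irf7 (0.41) and Ifi27l2a (0.24) led. In NK cells Rtp4 (1.09, 0.321), Irf7 (0.46, 0.554) and Isg15 (0.64, 0.558) led. Irf7 was thus among the 3 smallest p-values of each lymphocyte class while missing the threshold in all 4. In classical monocytes Slfn4 was at 1.08 (adjusted p = 0.537), Slfn8 at -0.38 (0.612) and Cmpk2 at -0.58 (0.681). There 4 of 30 members had both knockout libraries above (19.0% of all genes) and 5 had both below (19.8%).

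In alveolar macrophages, Ifitm3 was the only member called, and it was lower (edgeR, background 2.58% lower and 3.57% higher among 8930 genes). At an unadjusted p under 0.05, 4 members were higher (10.5%) and 1 lower (9.59%). Ifitm3 (chr7:141009586-141010770, mm10) had 85.0 and 81.3 CPM in WT and 7.67 and 32.6 CPM in the knockout, from 302, 247, 5 and 18 UMIs. The groups did not overlap, and Ifitm3 fell by 2.11 log2 units (SE 0.34, adjusted p = 0.00331). The UMIs sat in few cells. Those with at least 5 Ifitm3 UMIs, a limit chosen after the values were seen, numbered 7 and 5 in WT and 0 and 1 in the knockout, and held 266 and 214 of the WT UMIs. Their median count of distinct classical monocyte markers was 4 and 5 in WT, against 1 in the remaining cells of every library. The 205 and 223 remaining WT cells held 36 and 33 Ifitm3 UMIs and the 53 and 32 remaining knockout cells 5 and 3. Without the 5% of cells with most UMIs the change was -1.07 (adjusted p = 0.857), and without WT 1 the adjusted p was 0.0526. Isg15 was at 2.53 and 3.29 CPM in WT and 12.3 and 9.04 CPM in the knockout (1.88, SE 0.61, adjusted p = 0.0794), but this rests on 9, 10, 8 and 5 UMIs.

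Whether an effect differed between classes was tested with the knockout effect in 1 class minus the mean of the effects in the other 7. Ifitm3 in alveolar macrophages was 2.51 lower on the log2 scale than elsewhere (log2 difference -2.51, SE 0.57, adjusted p = 0.0286, edgeR, background 2.09% lower). That call was lost when any 1 of the 4 libraries was left out, with adjusted p-values from 0.0790 to 0.404. No other member passed in any class. The values were -0.61 for Slfn4 (adjusted p = 0.905) and 0.09 for Rtp4 (1) in neutrophils, and 0.45 for Irf7 (0.728) and 0.57 for Oasl2 (1) in nonclassical monocytes. These 4 changes were thus not shown to be particular to the class in which they passed.

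The third comparison asked whether a shift came from few high cells or from all cells. Member UMIs were summed per cell after each cell of a class was thinned to 1 depth, the 10th percentile of UMIs in that class, and shallower cells were left out. In neutrophils, thinned to 1405 UMIs, the mean was 5.27 and 4.76 member UMIs per cell in WT and 8.91 and 7.44 in the knockout, a ratio of 1.63. The median moved from 3 in both WT libraries to 5 in both knockout libraries. Among the lower 90% of cells the mean was 3.47 and 3.50 against 5.33 and 5.05, a ratio of 1.49. The highest 10% had 21.3 and 15.9 against 40.7 and 28.9, a ratio of 1.87, and held 51.3% of the difference in the mean. The neutrophil mean was thus higher in the knockout in both parts. For each of these means both knockout libraries lay above both WT libraries (exact permutation test, p = 0.33 two-sided for the lower 90%, the smallest that 2 against 2 can give). The 10th percentile was 1 in all 4 libraries, and the 25th was 2 and 2 in WT and 3 and 2 in the knockout. Cells with at least 5 members made up more than 10% of every library, so the lower 90% still held some of them. The split therefore cannot tell a shift of all cells from a larger share of high cells.

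Cells with many members at once had a larger share in both knockout neutrophil libraries than in either WT library. At least 5 distinct members were found in 15.8% and 16.5% of WT cells and in 29.7% and 23.5% of knockout cells (exact permutation test, p = 0.33 two-sided). Without thinning these shares were 29.3% and 30.4% against 45.5% and 40.5%. At least 10 members were found in 9 and 2 WT cells and in 22 and 16 knockout cells. The unthinned mean did not separate the genotypes, at 15.2 and 12.4 against 18.1 and 15.2 UMIs per cell (ratio 1.20), while the unthinned median was 5 and 5 against 8 and 7. In WT 1, 1 neutrophil of 35018 UMIs held 692 member UMIs and all 31 members, or 9.23% of the member UMIs of that class and library.

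**Figure D4:**
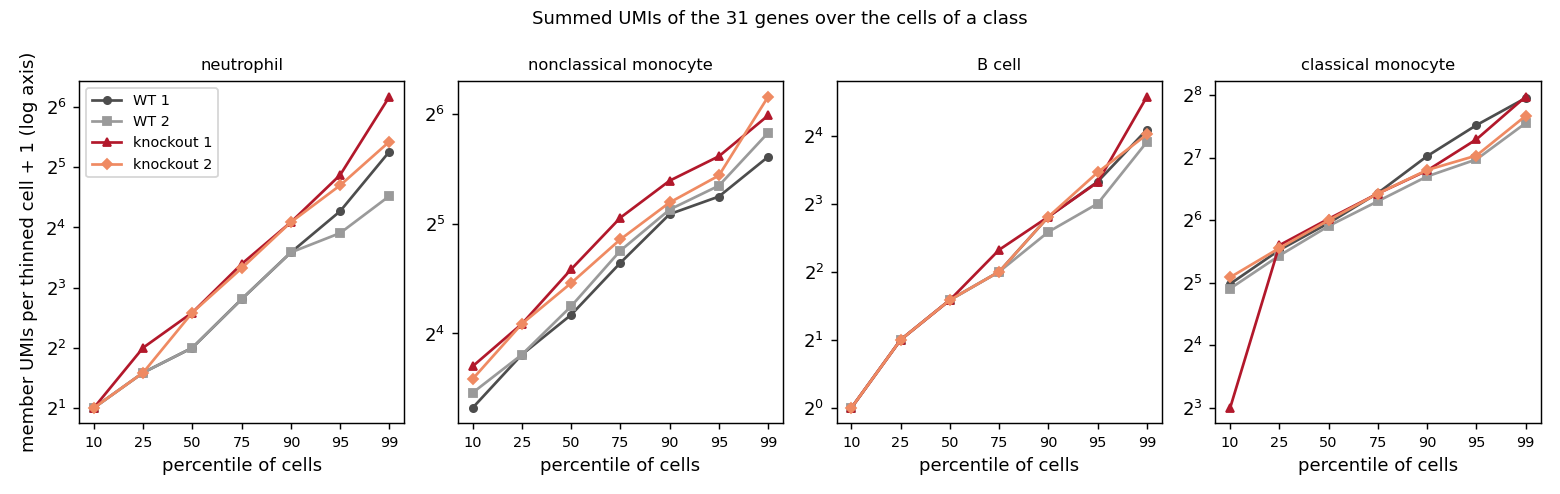
Member UMIs per thinned cell plus 1 (log axis) at 7 percentiles of cells, from the 10th to the 99th, for each library in neutrophils, nonclassical monocytes, B cells and classical monocytes. The knockout neutrophil lines lie above the WT lines at the median, at 5 against 3 UMIs, while the classical monocyte lines cross.

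In nonclassical monocytes the ratio of knockout to WT means was nearly equal in all cells, in the lower 90% and in the highest 10%. Thinned to 3384 UMIs, the mean was 19.5 and 21 in WT and 25.05 and 23.3 in the knockout (ratio 1.19). The lower 90% had 17.2 and 18.1 against 22.1 and 20.1 (ratio 1.19), and the highest 10% had 40.04 and 46.4 against 50.5 and 51.3 (ratio 1.18). The highest 10% held 21.2% of the difference. The 10th percentile was 9 and 10 against 12 and 11, the median 17 and 18 against 23 and 21, and the 90th percentile 33 and 34 against 41 and 35.6. Much of this level is Ifitm3 and Ifi27l2a, and without the 3 most abundant members the ratio of the means was 1.34. At least 5 members were found in 29.8%, 37.2%, 58.7% and 37.8% of cells, so knockout 1 stood apart and knockout 2 was close to WT 2.

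In the lymphocytes the ratios were small, and the highest 10% of cells had the larger ratio. B cells had means of 2.54 and 2.35 in WT and 2.95 and 2.86 in the knockout (ratio 1.19) and a median of 2 in all 4 libraries. Their ratio was 1.15 in the lower 90% and 1.25 in the highest 10%, which held 51.1% of the difference. Not thinned, the B-cell ratio was 1.10. CD4 T cells had 3.96 and 3.99 against 5.25 and 4.30 (ratio 1.20), with knockout 1 higher than the rest. The ratio was 1.15 in their lower 90% and 1.31 in their highest 10%. CD8 T cells had 3.50 and 3.73 against 4.36 and 3.74 (ratio 1.12), with 1.08 in the lower 90% and 1.22 in the highest 10%. NK cells overlapped, at 2.35 and 2.02 against 2.62 and 2.35. Classical monocytes overlapped as well, at 73.1 and 63.8 against 70.3 and 67.8 (ratio 1.01). Their 10th percentile was 30.6 and 29 in WT and 7 and 33 in the knockout, so the lowest cells of knockout 1 stood apart. Alveolar macrophages had 3.43 and 3.51 against 3.82 and 3.81 (ratio 1.10), and the ratio was 0.962 in their highest 10% and 1.0 without thinning.

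**Figure D5:**
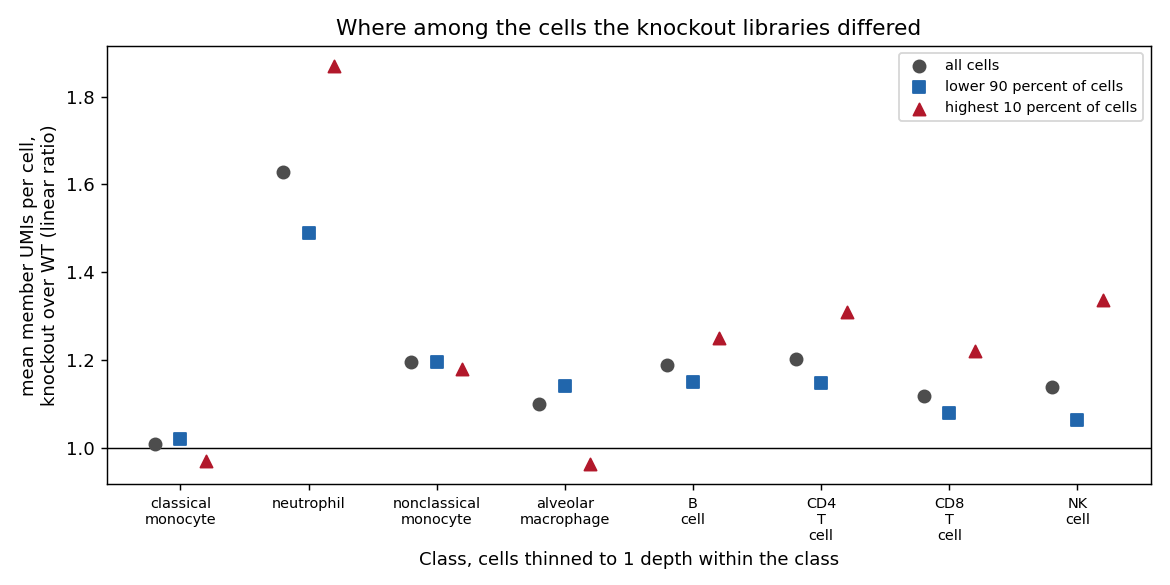
Ratio of knockout to WT in mean member UMIs per thinned cell, for all cells, for the lower 90% and for the highest 10% of cells, by class. In neutrophils the 3 ratios are 1.63, 1.49 and 1.87, in nonclassical monocytes they are 1.19, 1.19 and 1.18, and in classical monocytes they are near 1.

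The members that passed the test were then followed in single cells. Slfn4 was detected in 21.3% and 20.3% of thinned WT neutrophils and in 24.8% and 26.5% of knockout neutrophils. In B cells, which should lack it, the share was 0.26% to 0.68% at 2920 UMIs per cell, against neutrophils thinned to 1405. The 5 highest cells held 13.3% to 19.3% of the Slfn4 UMIs of a library. Rtp4 was detected in 14.7% and 15.1% of WT and in 24.0% and 22.1% of knockout neutrophils. Its share of cells thus differed more between genotypes than that of Slfn4. Irf7 was detected in 25.2% and 31.4% of thinned WT and 40.1% and 30.9% of knockout nonclassical monocytes, which overlap, although its CPM did not.

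To see where each member moved without using its own value, cells were ranked by the sum of the other members. In the lower 90% of neutrophils so ranked, Rtp4 had 0.191 and 0.168 UMIs per cell in WT and 0.284 and 0.271 in the knockout. In the top 10% it had 0.391 and 0.547 against 1.17 and 1.06, so the difference was in both parts. Slfn4 had 0.247 and 0.222 against 0.252 and 0.315 in the lower 90%, and 1.67 and 0.66 against 2.67 and 1.65 in the top 10%, where knockout 2 lay just under WT 1. Isg15 had 0.853 and 0.661 against 1.13 and 0.972 in the lower 90%, and 2.28 and 1.85 against 7.76 and 3.67 in the top 10%. In nonclassical monocytes Oasl2 had 0.047, 0.081, 0.088 and 0.081 in the lower 90%, and 0.154 and 0.286 against 0.577 and 0.583 in the top 10%.

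The rest of the pathway was read from a fixed list. Of the ligands, Ifnb1 and 4 Ifna genes, only Ifnb1 gave a UMI, 1 in knockout 1, among 15854989 to 20318251 UMIs per library in the 8 classes. Sensors and adaptors, 14 genes such as Mavs, Tlr7 and Irf3, had 0 genes called in any class, with 9 to 13 tested. Among the 11 receptor and signalling genes only Socs3, a feedback inhibitor of cytokine receptors, was called. Socs3 rose in nonclassical monocytes, from 128 and 160 to 305 and 233 CPM (0.91, adjusted p = 0.00517, edgeR), and in alveolar macrophages, from 20.8 and 21.1 to 52.2 and 72.3 CPM (1.55, adjusted p = 0.000729). In B cells it fell, from 40.8 and 32.7 to 19.7 and 19.1 CPM (-0.93, adjusted p = 0.00532).

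Other interferon-induced genes, 31 genes outside the member list, were spread around 0 in neutrophils. Of 28 tested there, 13 lay above 0 with a median of -0.04. In nonclassical monocytes 21 of 28 lay above 0 with a median of 0.12, and in B cells 17 of 23 with a median of 0.15. Of this list only Ms4a4c was called, a membrane protein of the CD20 family. It rose in CD8 T cells (37.1 and 42.9 to 62.2 and 75.3 CPM, 0.78, adjusted p = 0.0310, edgeR) and in nonclassical monocytes (164 and 184 to 257 and 274 CPM, 0.61, adjusted p = 0.0105). A comparison list of 13 genes known for their response to interferon gamma had medians of 0.36 in neutrophils, 0.10 in nonclassical monocytes and 0.17 in B cells. In that list Cxcl10, a chemokine that draws T cells and that type I interferon also induces, rose in nonclassical monocytes from 1.57 and 1.25 to 24.1 and 22.2 CPM (3.96, SE 0.43, adjusted p = 3.77e-05, edgeR). No other gene of the comparison list was called in any class.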

How the data were processed

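Live lung CD45.2+ cells of 2 WT and 2 Lmna_KO mice were profiled with 10x 3′ chemistry. The deposited values are unnormalized UMI counts. Cell Ranger 3.0.2, Seurat 3.0.0 and mm10 are listed in the submitters' processing notes. A cell was kept if it had 200 or more genes and no more than 10% of UMIs from mitochondrial genes. A cell joined the class with the most distinct markers detected, at least 2 and more than any other class. No doublet caller was run: 629 cells with at least 3 markers of another lineage were set aside as mixed. Free RNA was not subtracted. Counts were summed per library and class (at least 25 cells in each library) and tested with edgeR 4.0.16 (filterByExpr, TMM, robust quasi-likelihood, Benjamini-Hochberg over all genes at 0.05). DESeq2 1.42.0, R 4.3.3 and Python 3.11.15 were also used. Adjusted p-values in the text are from edgeR unless DESeq2 is named. The code was tested on simulated data. Members and lists were chosen with earlier results of these data known. Members past the threshold are given in full, otherwise up to 3 with the smallest p in a class. For levels these are the 3 highest by fold, chosen among called members. Gene positions are from GENCODE M21 on mm10. The labels give the library numbers no meaning, so they were not taken as pairs.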

Additional observations from a re-analysis of the deposited data

Results flagged for a closer look

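The knockout effect on Ifitm3 in alveolar macrophages differed from the mean effect in the other classes by -2.51 log2 units (edgeR, adjusted p = 0.0286). The difference itself was tested, but as given above the call was lost when any 1 library was left out. In WT, 7 and 5 cells held 266 and 214 of the 302 and 247 Ifitm3 UMIs of this class. Their median count of classical monocyte markers was 4 and 5, against 1 in the remaining cells. The part of these cells in the difference was not tested.

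Classes with fewer than 25 cells in some library entered no test, and in 4 of the 6 named ones both knockout libraries lay above both WT libraries in summed member level (plain CPM, not TMM-scaled). The lower knockout value was 1146 in basophils or mast cells, where the other knockout library had 4969 and WT had 696 and 372. In that class 1 cell held 51.9% and 47.7% of the member UMIs of knockout 1 and knockout 2. In conventional dendritic cells it was 3034, beside 3778, with 2122 and 2754 in WT. There 1 cell held 32.3% of the member UMIs of knockout 1, and 1 cell held 31.5% of those of WT 1. In plasmacytoid dendritic cells, known as strong interferon producers, it was 6882, beside 7559, with 6026 and 5444 in WT. These values came from 11 and 10 knockout cells and 21 and 19 WT cells. In regulatory T cells it was 3128 (39 cells), beside 3564 (33 cells), with 2269 and 1990 in WT (26 and 10 cells). With each cell thinned to 1000 UMIs, regulatory T cells had mean member UMIs of 1.81 and 3.4 in WT. The knockout means were 3.45 and 2.38, so the groups overlapped at that depth. Basophils or mast cells and conventional and plasmacytoid dendritic cells kept the order at that depth. The other classes overlapped: interstitial macrophages had 3148 and 2158 in WT and 2560 and 1952 in the knockout, and migratory dendritic cells 1417 and 805 against 11337 and 761. None of these differences was tested, and no background share is given for the order of the libraries.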

How the results depend on the processing

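The single members followed through the alternative runs were those past the threshold and, in classes without a call, the 3 with the smallest p. None of their changes turned direction, but medians over members near 0 and ratios near 1 did. Other members named above were not followed in this way. The CD8 T cell median was -0.05 without knockout 1 (0.16 in the full data), the CD4 T cell median -0.18 at 5% mitochondrial UMIs, with 6 members tested (0.22), and the classical monocyte median 0.09 without WT 1 (-0.13). The alveolar macrophage median (0.06) was -0.05 with the stricter gate and without the cells with most UMIs, -0.07 without knockout 2 and without WT 1, and -0.15 without WT 2. Among the secondary values compared, 310 were counted as the same, 26 as moved, 19 as losing the threshold and 5 as gaining it. These values pool changes of single genes with ratios over cells, so the counts do not describe single members alone. With a replicate block the number of members higher in the knockout was 7 in neutrophils (2 without it), 0 in nonclassical monocytes (2) and 1 in CD4 T cells (0), and no other count of calls changed. Under the block Irf7 and Oasl2 in nonclassical monocytes had adjusted p = 0.0744 and 0.127 (edgeR). Deviations of same-numbered libraries correlated with r from -0.08 to 0.15 over the 8 classes, and in neutrophils, at 0.15, the epithelial and fibroblast markers also went with the number. This is a hint from the data, since no label ties a number to a shared batch or litter. DESeq2 called 5 in neutrophils and 0 in nonclassical monocytes. The share of all genes called in each alternative run is not given, so the counts of calls in this section have no background beside them. Without the low-count filter the counts were 9 in neutrophils, 7 in nonclassical monocytes, 4 in B cells, 2 in classical monocytes and 1 in alveolar macrophages. Leaving out each library in turn gave from 0 to 13 higher members in neutrophils, 2 to 7 in nonclassical monocytes, 0 to 3 in B cells, 0 to 1 in CD4 T cells, 0 to 2 in CD8 T cells, and 0 to 1 in NK cells, alveolar macrophages and classical monocytes. Each upper end in neutrophils, nonclassical monocytes and lymphocytes came without knockout 2. It gave 0 to 2 lower members in alveolar macrophages (1 in the full data) and 0 to 1 in classical monocytes. Members higher in alveolar macrophages than elsewhere numbered 1 to 2. The difference in knockout effect had 0 members in alveolar macrophages in all 4 of these runs (1 in the full data) and 0 to 1 in neutrophils. Without the 5% of cells with most UMIs, 0 members were lower in alveolar macrophages. With WT libraries only, 5 members were higher in CD8 T cells than elsewhere (3 in the full data). With a stricter gate 1 member differed in knockout effect in B cells. For knockout over WT in mean member UMIs per cell, values without thinning were 1.20 in neutrophils, 1.10 in B cells and 1.0 in alveolar macrophages. Without the 3 most abundant members the ratio was 1.34 in nonclassical monocytes and 1.22 in alveolar macrophages. The stricter gate gave 0.964 (1.10 in the full data) and leaving out cells with nonimmune markers gave 1.01 in alveolar macrophages. The classical monocyte ratio (1.01) lay between 0.966 and 0.994 in 3 settings. The cause of these moves was not tested. Slfn4 in neutrophils had adjusted p = 0.0688 without WT 1, 0.215 without WT 2 and 0.0675 without the cells with most UMIs, and Rtp4 had 0.233 without WT 1 (edgeR). The medians over members under leave-one-out ran from 0.21 to 0.71 in neutrophils, 0.27 to 0.61 in nonclassical monocytes and 0.20 to 0.60 in B cells. The limit of 5% mitochondrial UMIs was not run for B cells and alveolar macrophages, which then had under 25 cells in a library. The precision is limited by 2 libraries a genotype and by 53 and 33 knockout alveolar macrophages.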

Other observations

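Single cells with nearly the whole set were present in both genotypes. In migratory dendritic cells, too few for a test, 1 cell of knockout 1 held 1543 member UMIs of its 44857 UMIs, from 30 members. That cell gave 70.3% of the member UMIs of its class and library, and without it the level was 4387 instead of 11337 plain CPM. In classical monocytes the highest cell of knockout 1 held all 31 members in 9147 UMIs. In T-cell precursors of WT 2, the mean at 1000 UMIs per cell was 0.459 member UMIs, against 1.08 and 1.18 in CD4 T cells of WT 1 and WT 2. The 23, 19 and 40 precursors of WT 1, knockout 1 and knockout 2 had means of 1.17, 0.947 and 1.375. The low mean was thus seen in WT 2 alone and not in the precursors of the other libraries.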
